A study of Mus musculus with 8 samples.

Results

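Among the genes counted in E14 mouse ESCs after the change from serum to 2i, 7 were selected on their counts because each was higher with vitC than without it at all 4 time points: Pprc1, Ppp2r2a, Zfp951, C130073F10Rik, Gm13230, 1700030C10Rik, and the gene ENSMUSG00000078564. They are 7 of the 37263 Ensembl genes in the count tables, and all 7 were among the 14931 genes kept for testing, those with at least 1 CPM (counts scaled to library size) in at least 2 libraries. E14 is an ESC line of strain 129/Ola that was grown here without feeders and with LIF. Cells in serum were moved to serum-free 2i, which contains the MEK inhibitor PD0325901 and the inhibitor CHIR99021 of GSK3, and were harvested at 4, 16, 24, and 32 hr. The vitC arm received the same medium, inhibitors, and LIF with 17 µM L-ascorbic acid. A single library of total RNA depleted of ribosomal RNA was made at each time in each arm (8 in all), so no value below has a replicate culture behind it, and serum libraries were not analysed here.

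VitC is a reducing agent that keeps iron in its active form in the dioxygenases that use iron and 2-oxoglutarate. This enzyme class includes the TET enzymes, which oxidize methylated cytosine, the JmjC histone demethylases, and the prolyl hydroxylases that mark HIF for degradation. The members with known roles belong to different pathways. Pprc1 encodes a coactivator of the PGC-1 family, which drives nuclear genes of mitochondrial biogenesis. Ppp2r2a encodes a B-type regulatory subunit of the phosphatase PP2A, the part of the enzyme that selects substrates. Zfp951 is named as a zinc finger protein gene. Gm13230, 1700030C10Rik, and C130073F10Rik carry only provisional names.

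Because the members were chosen for higher counts with vitC, the ratios between vitC and 2i are given as a description and were not tested. The rule asks only for a ratio above 0 on the log2 scale at all 4 times, and 1642 genes met it, which is 11.0% of those tested. Lsm14a lay just inside with a smallest log2 ratio of 7.3e-05 and Trak1 just outside with -1.6e-05, whereas the member nearest to that edge, Ppp2r2a, had a smallest ratio of 0.55. Of all genes tested, 75 had a smallest ratio at or above that of Ppp2r2a, and 4 members (Gm13230, C130073F10Rik, 1700030C10Rik, and ENSMUSG00000078564) ranked 5 to 8 among them. The 7 are thus a selection from the genes that met the rule.

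The libraries held 12940716 to 18434932 counts in 2i and 4753528 to 13157570 with vitC, and the vitC library was the shallower one in each pair, by 1.14-fold at 32 hr to 2.72-fold at 24 hr. A limit of 3 counts corresponds to 0.163 to 0.631 CPM of the library totals. The share of counts on Lars2, Gm23935, and ENSMUSG00000093077 was 0.0277% in 2i and 0.0113% with vitC at 4 hr. At later times it was 0.206% and 7.11% at 16 hr, then 5.92% and 6.37% at 24 hr, and 0.564% and 4.21% at 32 hr. The summed level of 8 ESC markers spanned 1888 to 2357 CPM in 2i and 1864 to 2384 CPM with vitC. Markers of primitive endoderm (6 genes, 12.9 to 24.6 CPM in 2i and 10.3 to 33.2 CPM with vitC), fibroblasts (5 genes, 114 to 367 and 95.1 to 674 CPM), and neural cells (3 genes, 235 to 447 and 189 to 395 CPM) overlapped between treatments, and no marker was at 0 in every library. These ranges pool the 4 times and do not compare libraries of the same time. Over the same-time pairs, the median of the genes' mean log2 ratios of vitC over 2i was -0.11 for ESC markers and 0.01 for primitive endoderm. It was 0.26 for fibroblasts and -0.15 for neural cells. The part that depth, the Lars2 share, or these markers may have in the values below was not tested unless stated. In bulk RNA, more cells that express a gene and more RNA per cell cannot be told apart.

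The promoters are shown first, since a common treatment response raises the question of what the members share in sequence. RefSeq (GRCm38.p6) gave a start site, matched by gene symbol, for 4 of the 7 members. The 250 bases before that site are printed 5′ to 3′ on the strand of the gene, with each CpG in capitals: 1700030C10Rik from chr12:20815780-20816029 (minus strand), Pprc1 from chr19:46056289-46056538 (plus strand, inside the longer GENCODE gene), Zfp951 from chr5:104860028-104860277 (minus strand, 1 of 2 overlapping windows), and C130073F10Rik from chr4:101893790-101894039 (minus strand).
1700030C10Rik: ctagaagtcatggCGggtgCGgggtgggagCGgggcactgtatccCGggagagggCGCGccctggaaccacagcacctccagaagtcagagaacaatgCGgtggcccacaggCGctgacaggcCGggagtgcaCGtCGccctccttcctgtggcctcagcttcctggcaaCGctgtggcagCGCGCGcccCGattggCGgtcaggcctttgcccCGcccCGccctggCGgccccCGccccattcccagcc
Pprc1: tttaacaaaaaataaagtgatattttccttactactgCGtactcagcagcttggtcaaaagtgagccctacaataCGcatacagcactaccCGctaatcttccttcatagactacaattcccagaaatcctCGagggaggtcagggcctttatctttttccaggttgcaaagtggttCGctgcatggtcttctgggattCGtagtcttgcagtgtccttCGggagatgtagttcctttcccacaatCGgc
Zfp951: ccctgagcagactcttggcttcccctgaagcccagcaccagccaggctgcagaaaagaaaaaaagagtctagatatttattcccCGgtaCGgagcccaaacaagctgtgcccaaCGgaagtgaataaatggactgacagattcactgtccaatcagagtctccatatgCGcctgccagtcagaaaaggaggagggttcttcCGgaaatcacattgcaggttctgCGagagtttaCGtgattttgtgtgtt
C130073F10Rik: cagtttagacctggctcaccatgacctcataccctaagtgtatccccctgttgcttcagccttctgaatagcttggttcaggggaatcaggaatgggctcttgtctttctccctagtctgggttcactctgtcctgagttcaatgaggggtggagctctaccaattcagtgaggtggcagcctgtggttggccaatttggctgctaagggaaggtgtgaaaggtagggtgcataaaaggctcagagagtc

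These 4 promoters were unlike each other. That of 1700030C10Rik held 21 CpGs, that of Pprc1 held 8, that of Zfp951 held 7, and that of C130073F10Rik held 0. GENCODE M21 gives the symbol 1700030C10Rik to another identifier as well, so the window under that symbol may belong to either. The observed over expected ratio of CpG in these 250 bases was 0.671 for 1700030C10Rik, 0.633 for Pprc1, 0.463 for Zfp951, and 0 for C130073F10Rik. Over all 32851 windows in the RefSeq table the median was 0.374, with quartiles of 0.167 and 0.723, so that 3 members lay between the quartiles and C130073F10Rik at the bottom. Motifs were searched on both strands in windows of 300 bases, which add the 50 bases after the start site. Of 8 motifs, 2 were found. ACGTG, a form of the core of the hypoxia response element, occurred once in 1700030C10Rik and once in Zfp951 and is present in 19.6% of all windows. CCGGAA, an ETS core, occurred in Zfp951 at a palindromic site that matches on both strands, and is present in 14.9% of windows. None of the 4 members held GCGTG (32.4% of windows), CACGTG (7.15%, each of which also contains an ACGTG), TGACGTCA (1.79%), GCCATNTT (6.05%), the palindromic NRF1 consensus (4.6%), or TATAAA (13.6%). No motif was present in more than 2 of the 4 members.

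Pprc1 (ENSMUSG00000055491) was higher after 4 hr in both media and higher in the vitC library of each pair. In 2i its level was 38.8, 59.6, 63.3, and 56.1 CPM at 4, 16, 24, and 32 hr, the order of times used below. With vitC it was 58.2, 115.7, 163, and 86.6 CPM. The vitC level at 4 hr lay within the range of the 2i libraries, so that the treatments overlapped across times although the pairs did not. The folds of vitC over 2i were 1.50 (exact 95% interval 1.35 to 1.67), 1.94 (1.77 to 2.13), 2.58 (2.33 to 2.85), and 1.54 (1.41 to 1.70). These intervals, and all others here, cover counting error only.

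Ppp2r2a (ENSMUSG00000022052) showed the smallest and one of the steadiest differences. Its level in 2i was 50.8, 47.8, 60.5, and 40.5 CPM, against 74.2, 87.5, 90.3, and 65.0 CPM with vitC. Every vitC library stood above every 2i library. The folds were 1.46 (1.33 to 1.60), 1.83 (1.65 to 2.03), 1.49 (1.32 to 1.68), and 1.61 (1.44 to 1.80), and the mean log2 ratio was 0.67 ± 0.15 (SD, n = 4 pairs).

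Zfp951 (ENSMUSG00000072774) was a gene of low level. In 2i its level was 4.71, 2.68, 3.13, and 2.97 CPM, values which rest on 40 to 81 counts. With vitC it was 7.68, 9.08, 10.5, and 13.2 CPM. The 2 treatments did not overlap, and the folds were 1.63 (1.21 to 2.21), 3.39 (2.30 to 5.00), 3.36 (2.16 to 5.23), and 4.43 (3.12 to 6.44). The interval at 4 hr lay below those at 16 and 32 hr, but these ratios chose the member, so nothing is read from that.

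C130073F10Rik (ENSMUSG00000046133) had a mean log2 ratio of 1.79 ± 0.44 (SD, n = 4 pairs), which was the largest of the 7 at the depths as sequenced but 1.41, below 4 other members, when all libraries were thinned to the same total. It was at 2.33, 4.52, 3.21, and 5.49 CPM in 2i and at 5.45, 18.3, 15.2, and 19.7 CPM with vitC. The vitC library at 4 hr was level with the 2i library at 32 hr, and the later vitC libraries stood above all 2i libraries. The folds were 2.34 (1.57 to 3.53), 4.05 (3.06 to 5.39), 4.74 (3.19 to 7.15), and 3.58 (2.75 to 4.71).

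Gm13230 (ENSMUSG00000082082), annotated as a transcribed pseudogene, was at 6.87, 8.88, 14.1, and 12.9 CPM in 2i and at 15.7, 45.7, 46.8, and 33.1 CPM with vitC. All vitC libraries were above all 2i libraries, although the lowest vitC level exceeded the highest 2i level only narrowly. The folds were 2.29 (1.82 to 2.90), 5.14 (4.25 to 6.24), 3.32 (2.71 to 4.06), and 2.56 (2.14 to 3.08). Reads of this gene are partly ambiguous, since 25.2% of the stretches of 50 bases in its transcripts, the length of a read, occur also in transcripts of 33 other genes. Platr16, which shares 290 exon bases with it on the same strand, had 0 to 7 counts per library.

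1700030C10Rik (ENSMUSG00000091071), also annotated as a transcribed pseudogene, had the second most even ratios. It was at 2.79, 3.00, 2.90, and 4.83 CPM in 2i and at 6.42, 7.64, 7.51, and 15.1 CPM with vitC. The treatments did not overlap, and in both of them the library at 32 hr was the highest. The folds were 2.30 (1.60 to 3.34), 2.55 (1.72 to 3.77), 2.59 (1.58 to 4.23), and 3.13 (2.34 to 4.22), with overlapping intervals. GENCODE M21 gives the symbol to another identifier as well, for which the tables hold no row, and 23.9% of its stretches of 50 bases occur in transcripts of other genes.

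ENSMUSG00000078564 is not listed in GENCODE M21 and is known here by its identifier alone. Its level in 2i was 10.8, 9.04, 5.17, and 6.90 CPM, and with vitC it was 21.9, 26.7, 26.8, and 19.9 CPM. The lowest vitC library stood well above the highest 2i library. The folds were 2.03 (1.68 to 2.45), 2.95 (2.38 to 3.65), 5.19 (3.82 to 7.10), and 2.89 (2.26 to 3.71).

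**Figure D1:**
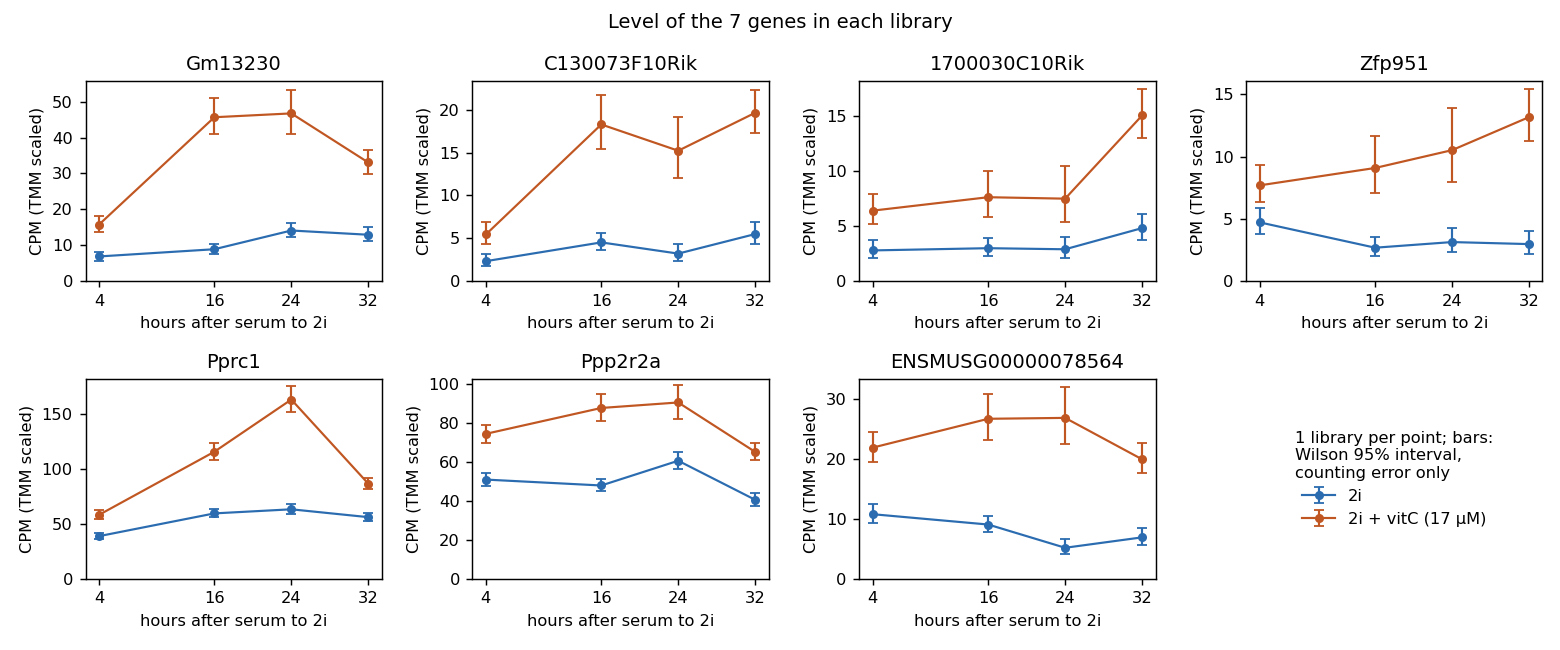
Level of each member in CPM (linear axes from 0, a panel per gene) against hours after the change to 2i, with 1 point for each of the 8 libraries, blue for 2i and orange for 2i with vitC, and bars for the Wilson 95% interval of the counts. The vitC point lies above the 2i point at all 4 times for each of the 7 genes, which the choice of genes fixes, and the 2i courses differ between genes.

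Across the members, 5 of 7 had every vitC library above every 2i library, and 1.34% of all genes tested did. All 7 had their smallest ratio at 4 hr, compared with 41.5% of the 1642 genes that were higher at all 4 times. Both counts come from the values that chose the members, so nothing is read from them. The median log2 ratio of the members was 1.01, 1.54, 1.70, and 1.51 at 4, 16, 24, and 32 hr. Over all genes tested it was 0.01, -0.02, -0.02, and 0.00. The largest ratio fell at 16 hr for Gm13230 and Ppp2r2a, at 24 hr for C130073F10Rik, Pprc1, and ENSMUSG00000078564, and at 32 hr for Zfp951 and 1700030C10Rik, so the time of the peak differed between members. At 24 hr the Lars2 share was alike in both libraries of the pair, and the members' folds there ranged from 1.49 to 5.19. At 4 hr it was under 0.03% in both, and the folds ranged from 1.46 to 2.34. With that share as a covariate, a setting chosen after seeing the data, the fitted log2 fold for vitC ranged from 0.59 for Ppp2r2a to 1.70 for C130073F10Rik, against 0.67 and 1.84 without it. The pair ratios chose the members, so nothing about the part of the Lars2 share is read from these values.

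**Figure D2:**
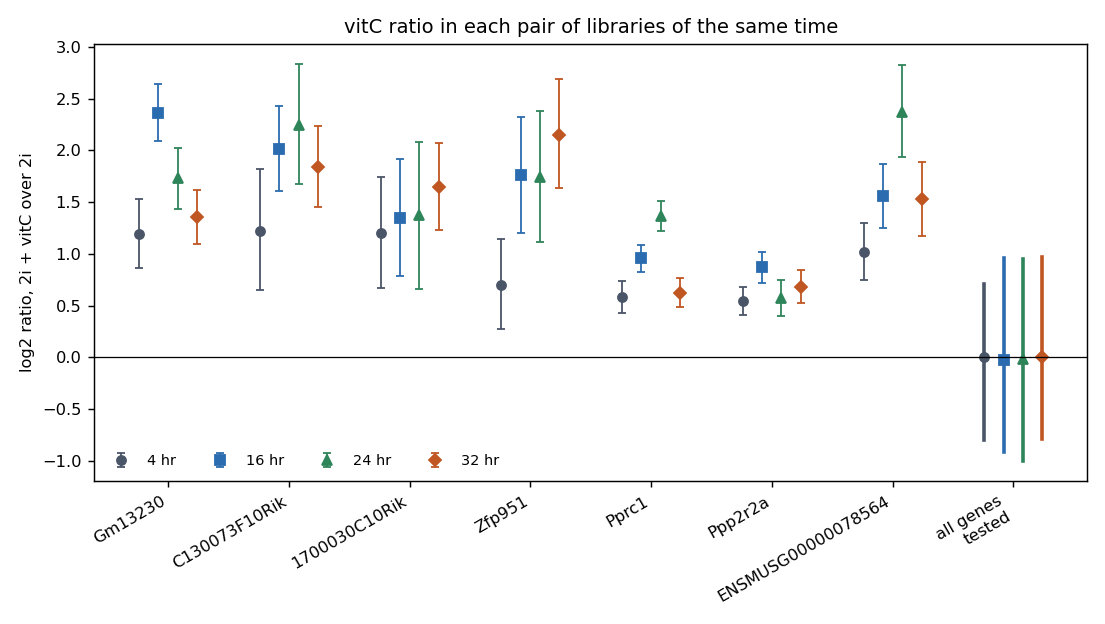
The log2 ratio of CPM with vitC over 2i at 4, 16, 24, and 32 hr for each member, with exact 95% intervals that cover counting error only, beside the median and the 5th to 95th percentile of all genes tested at the same time (log2 ratios with a prior count of 2). All 28 ratios of the members are above 0 by the rule, and each member's lowest one is at 4 hr.

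The course after the medium change was a contrast that the rule did not name. It is not independent of the choice, since each change draws on the vitC libraries whose counts chose the members as well as on 2i. For this course edgeR's quasi-likelihood test was applied to an additive model of time and vitC that used the 8 libraries, with Benjamini-Hochberg adjustment over 14931 genes. Its error has 3 residual degrees of freedom per gene, and edgeR draws it towards that of the other genes. A gene's own part measures how far the 2i and vitC courses depart from parallel. The vitC ratios that chose the members thus also enter the error, although the rule did not ask for steady ratios. The error does not measure a spread between cultures. Between 4 and 24 hr, both on lane 8, 20.5% of all genes passed. Of the 7 members 3 rose, against 11.5% of all genes, and 0 fell, against 8.98%. Pprc1 rose by 1.11 on the log2 scale (SE 0.18, edgeR adjusted p = 0.0018), Gm13230 by 1.31 (SE 0.27, edgeR adjusted p = 0.0054), and C130073F10Rik by 1.02 (SE 0.31, edgeR adjusted p = 0.037). In 2i alone the log2 ratios of 24 to 4 hr were 0.703, 1.021, and 0.438 for these genes in that order. With vitC alone they were 1.485, 1.56, and 1.456. The log2 changes of the other 4 were 0.27 for Ppp2r2a, 0.15 for 1700030C10Rik, -0.09 for Zfp951, and -0.34 for ENSMUSG00000078564. In the same contrast 3 of 8 ESC markers passed as higher and 1 as lower (edgeR). Of the other markers, 3 of 5 for fibroblasts and 2 of 5 tested for primitive endoderm passed as higher. For neural cells 2 of 2 tested passed as lower. The shares of all genes were the 11.5% and 8.98% above. The part of these markers in the members' changes was not tested.

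The same 3 members passed at 16 hr, when 16.4% of all genes passed (9.16% higher and 7.24% lower): C130073F10Rik by 1.38 (edgeR adjusted p = 0.0103), Gm13230 by 1.00 (edgeR adjusted p = 0.024), and Pprc1 by 0.80 (edgeR adjusted p = 0.0129). At 32 hr, when 25.3% of all genes passed, 4 members passed as higher, against 13.5% of all genes, and 0 as lower, against 11.8%. These were C130073F10Rik (1.56, edgeR adjusted p = 0.0028), 1700030C10Rik (1.03, edgeR adjusted p = 0.0225), Gm13230 (0.99, edgeR adjusted p = 0.0165), and Pprc1 (0.55, edgeR adjusted p = 0.043). The 16 and 32 hr libraries ran on lane 7, so lane and time cannot be told apart in these 2 contrasts. The calls depended on single libraries and on the model: without the vitC library at 4 hr 0, 1, and 0 members were called at 16, 24, and 32 hr, and without a treatment term they were 0 at each time. Leaving out the treatment term puts the vitC difference that chose the members into their error, so that loss follows in part from the choice. The log2 changes at 24 hr were then 1.21 for Pprc1, 1.39 for Gm13230, and 1.15 for C130073F10Rik. The Lars2 share was lowest in both 4 hr libraries, and it entered the model as a covariate in an alternative added afterwards. With this covariate 0 members passed at each time. The number of genes that passed was 73, 0, and 159 at 16, 24, and 32 hr by edgeR, with 2178, 1416, and 2394 at an unadjusted p under 0.05.

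**Figure D3:**
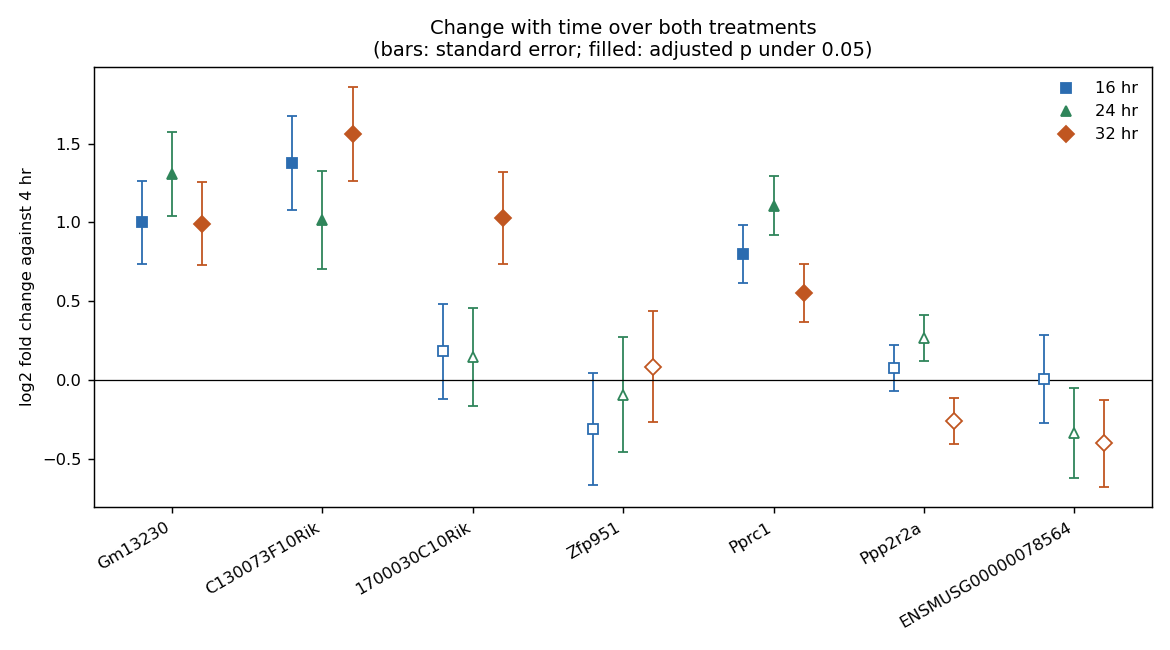
Fitted log2 change from 4 hr to 16, 24, and 32 hr for each member, with its standard error and filled symbols for an edgeR adjusted p under 0.05. C130073F10Rik, Gm13230, and Pprc1 lie above 0 at all 3 times, whereas the changes of Zfp951, Ppp2r2a, and ENSMUSG00000078564 lie between -0.40 and 0.27 and do not pass.

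In 2i alone, where each ratio compares 1 library with another, the members followed different courses. Relative to 4 hr, Gm13230 was at 1.29-fold (1.02 to 1.65), 2.05-fold (1.62 to 2.61), and 1.88-fold (1.48 to 2.40) at 16, 24, and 32 hr. Pprc1 was at 1.53-fold, 1.63-fold, and 1.45-fold, and all 3 intervals lay above 1. C130073F10Rik was at 1.94-fold, 1.38-fold, and 2.36-fold, of which the value at 24 hr had an interval that included 1 (0.870 to 2.19). These 3 genes were higher at each later time.

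1700030C10Rik was level in 2i until 24 hr (1.07-fold and 1.04-fold) and reached 1.73-fold at 32 hr (1.17 to 2.56). Ppp2r2a moved little, with 0.941-fold (0.856 to 1.03), 1.19-fold (1.08 to 1.31), and 0.796-fold (0.714 to 0.887). Zfp951 and ENSMUSG00000078564 were lower at each later time in 2i. Zfp951 was at 0.569-fold (0.393 to 0.817), 0.665-fold (0.443 to 0.982), and 0.630-fold (0.420 to 0.931). ENSMUSG00000078564 was at 0.840-fold (0.678 to 1.04), 0.480-fold (0.357 to 0.639), and 0.641-fold (0.494 to 0.827).

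With vitC both of these genes took another course. Zfp951 was at 1.18-fold (0.850 to 1.63), 1.37-fold (0.953 to 1.94), and 1.71-fold (1.33 to 2.22) of its level at 4 hr, and ENSMUSG00000078564 at 1.22-fold (1.01 to 1.47), 1.23-fold (0.987 to 1.52), and 0.911-fold (0.765 to 1.09). For these 2 members the 2i level at later times lay below that at 4 hr, as the plot of levels shows. The gap between their 2 courses is made of the pair ratios that chose them, so nothing is read from it. For Gm13230, Pprc1, and C130073F10Rik the vitC course ran in the direction of the 2i course and was at 2.97-fold, 2.81-fold, and 2.80-fold at 24 hr. For C130073F10Rik that was the lowest later value, with 3.36-fold at 16 hr and 3.61-fold at 32 hr.

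Relatives of the 2 members with known partners were looked at next. Levels per length (RPKM) allow genes to be compared. Among the B-type subunit genes of PP2A, Ppp2r2a averaged 9.27 RPKM in 2i and 14.7 RPKM with vitC, between Ppp2r2d (16.1 and 16.3 RPKM) and Ppp2r2c (4.74 and 4.43 RPKM), and Ppp2r2b was lowest (0.107 and 0.185 RPKM). The vitC and 2i ranges of Ppp2r2b, Ppp2r2c, and Ppp2r2d overlapped. Among the other regulatory subunits, Ppp2r5e was picked out after its values were seen. It was at 4.42 to 5.18 RPKM in 2i and at 5.30 to 6.61 RPKM with vitC. These ranges narrowly did not overlap, and its log2 ratio at 32 hr was 0.03. Of all genes tested, 1.34% had every vitC library above every 2i library. Of 30 genes of PP2A subunits and regulators, 28 were tested. At 24 hr 0 rose and 4 fell, against 11.5% and 8.98% of all genes. Those that fell were Ppp2r2d by 0.83 on the log2 scale (edgeR adjusted p = 0.0021), the PP2A activator Ptpa by 0.57 (edgeR adjusted p = 0.034), the scaffold subunit Ppp2r1b by 0.55 (edgeR adjusted p = 0.016), and Mastl, a kinase upstream of PP2A inhibitors, by 0.54 (edgeR adjusted p = 0.0138). The median log2 change of the list was -0.12, against 0.01 over all genes. For vitC, 5 of the 28, with Ppp2r2a among them by choice, were higher at all 4 times and 5 were lower, against 11.0% and 10.7% of all genes.

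The PGC-1 family was represented mainly by Pprc1, with 8.66 RPKM in 2i and 16.9 RPKM with vitC. Ppargc1b averaged 0.373 and 0.382 RPKM, and Ppargc1a had 0 counts in each of the 8 libraries, which allows up to 3 counts per library. Of 18 genes of this family and of mitochondrial transcription and replication, 17 were tested, and 2 rose and 0 fell at 24 hr, against 11.5% and 8.98% of all genes. The risers were Pprc1 itself and Hcfc1, a chromatin coregulator, which rose by 0.80 (edgeR adjusted p = 0.0193). For vitC, 5 of the 17, with Pprc1 among them by choice, were higher at all 4 times and 1 was lower, against 11.0% and 10.7% of all genes, with a median of the mean log2 ratios of 0.01.

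**Figure D4:**
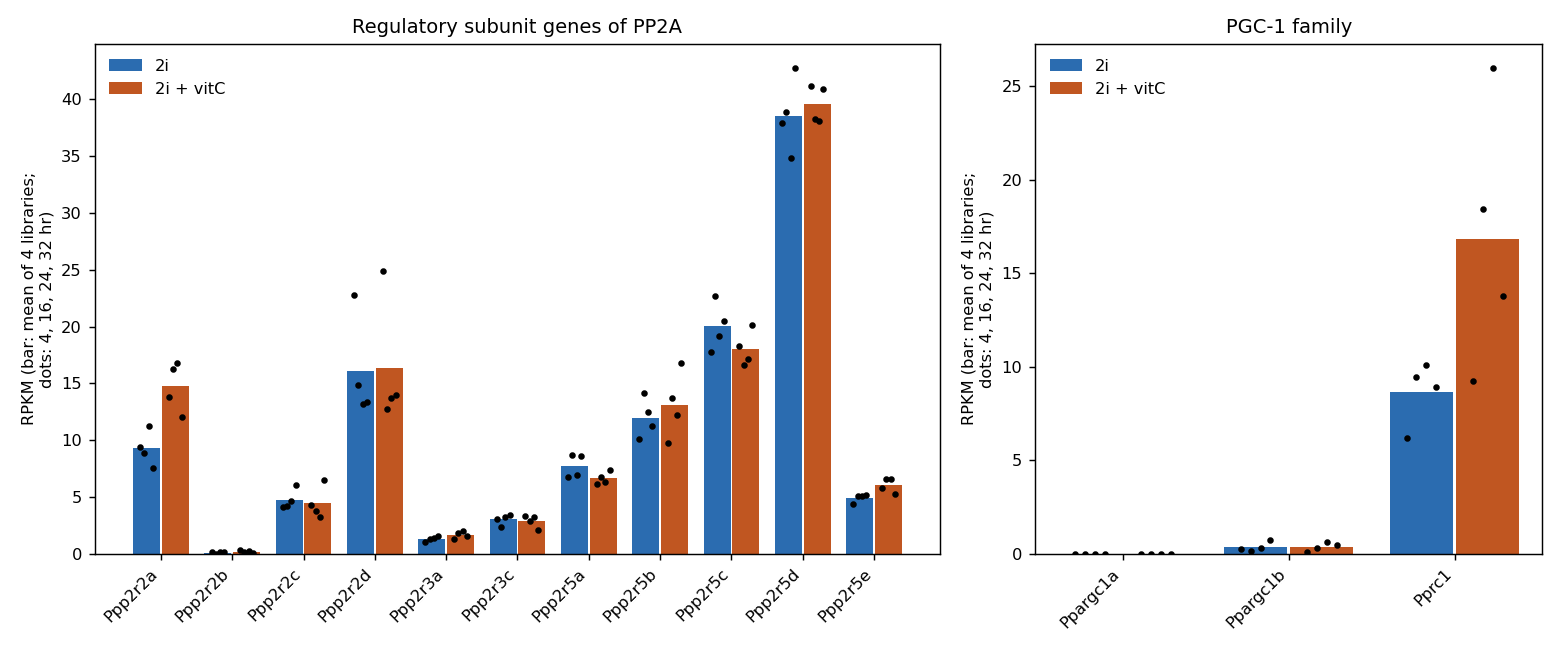
RPKM of regulatory subunit genes of PP2A (left) and of the PGC-1 family (right), with bars for the mean of the 4 libraries of a treatment and dots for the libraries at 4, 16, 24, and 32 hr. In the left panel the dots of Ppp2r2a and, narrowly, of Ppp2r5e do not overlap between treatments. In the right panel Pprc1 is the only member of its family above 1 RPKM.

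The third list covered genes of the repressor machinery that KRAB zinc finger proteins recruit, given for Zfp951 as a zinc finger gene, without any statement that Zfp951 itself has a KRAB domain. Of its 14 genes, 0 rose and 1 fell at 24 hr, against 11.5% and 8.98% of all genes, the latter being the corepressor Trim28, which fell by 0.88 (edgeR adjusted p = 0.0051). For vitC, 4 were higher at all 4 times and 0 lower, against 11.0% and 10.7% of all genes, with a median of the mean log2 ratios of 0.07. The 4 were Atf7ip, Atf7ip2, Resf1, and Daxx. Atf7ip, a partner of the H3K9 methyltransferase SETDB1 that was picked out after its values were seen, had log2 ratios of 0.74, 1.65, 1.64, and 1.49 at 4, 16, 24, and 32 hr.

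The members lay apart in the genome. By GENCODE M21 (GRCm38), whose build differs from the NCBIM37 named in the submitters' processing notes, Gm13230 is at chr4:145446740-145450888 (plus strand), C130073F10Rik at chr4:101890020-101893789 (minus), Zfp951 at chr5:104813169-104860070 (minus), 1700030C10Rik at chr12:20814257-20815727 (minus), Ppp2r2a at chr14:67014056-67072444 (minus), and Pprc1 at chr19:46044886-46072915 (plus). Of the 5 tested genes on either side of each, 60 in all, 4 were higher with vitC at all 4 times and 7 were lower, against 11.0% and 10.7% of all genes. Their median mean log2 ratio was 0.01, and for the 10 flanking genes of single members it ranged from -0.06 for Pprc1 to 0.08 for Gm13230. Ldb1, which overlaps Pprc1 by 177 exon bases on the opposite strand, had log2 ratios of -0.16, 0.03, 0.12, and -0.14, although reads on those bases cannot be assigned to a strand with the kit used.

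In structure the members were mixed as well. Of the 6 with annotation, 4 are protein coding and 2 are transcribed pseudogenes, while 90.5% of annotated genes tested are protein coding. Their merged exons measured 913 bases for C130073F10Rik, 1471 for 1700030C10Rik, 1575 for Gm13230, 4730 for Zfp951, 5381 for Ppp2r2a, and 6284 for Pprc1, around a median of 4162 bases over all genes tested. The number of exons ranged from 1 in 1700030C10Rik to 16 in Pprc1. GC content was 35.6% for Gm13230, 41.7% for Zfp951, 42.9% for Ppp2r2a, 46.1% for C130073F10Rik, 55.6% for Pprc1, and 59.3% for 1700030C10Rik, against a median of 50.3%. It thus spanned from the 0.138th to the 94.5th percentile of genes tested. The 3 shortest were the genes with provisional names.

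Per length, the 6 annotated members spanned from 0.713 RPKM for Zfp951 to 9.27 RPKM for Ppp2r2a as the mean in 2i, and from 2.14 RPKM for Zfp951 to 22.4 RPKM for Gm13230 as the mean with vitC. In 2i the order was Ppp2r2a (7.52 to 11.2 RPKM over 4 libraries), Pprc1 (6.18 to 10.1), Gm13230 (4.36 to 8.95), C130073F10Rik (2.55 to 6.02), 1700030C10Rik (1.90 to 3.28), and Zfp951 (0.567 to 0.996). Neighbours in this order overlapped, except Zfp951, which was below 1700030C10Rik in all libraries.

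The log2 levels of any 2 members over the 8 libraries correlated with r of 0.55 to 0.94 (median 0.80 over 21 pairs), which is a description, since both genes of a pair were chosen for the same contrast and share the libraries. The gene most like each member, among 11124 genes with at least 5 CPM on average, was Usp2 for Gm13230 (r = 0.98), AW554918 for C130073F10Rik (r = 0.98), Rbm44 for 1700030C10Rik (r = 0.94), Fam104a for Zfp951 (r = 0.96), Larp1 for Pprc1 (r = 0.99), Sorbs3 for Ppp2r2a (r = 0.97), and Usp10 for ENSMUSG00000078564 (r = 0.96). AW554918 was among the 3 most alike for both Gm13230 and C130073F10Rik, and Ddr2 for both Zfp951 and 1700030C10Rik. No gene was among the 3 for more than 2 members.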

How the data were processed

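RNA-seq libraries were made from 8 samples, 1 for each time and treatment, by ribosomal RNA depletion and TruSeq preparation, and 50 bp single ends were sequenced on an Illumina HiSeq. The authors deposited raw counts per Ensembl gene from HTSeq, without normalization. The submitters' processing notes name GSNAP and the builds NCBIM37 and mm9, and the strand setting of HTSeq is not given in the sources used here. The kit does not mark strand.

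Of 37263 identifiers, 32604 were found in GENCODE M21, which gave symbols, positions, merged exon lengths, and GC content. The members and the gene lists were chosen with earlier results of these data known. Members, list genes past the threshold at 24 hr, and the 3 genes most correlated with each member are named. The filter of 1 CPM or more in 2 or more libraries left 14931 genes, which were tested with edgeR 4.0.16 in R 4.3.3 (TMM, quasi-likelihood test, Benjamini-Hochberg adjustment, threshold 0.05). CPM use TMM factors, and log2 ratios a prior count of 2. Folds printed with an interval are ratios of CPM with an exact 95% interval given the counts of both libraries, and levels in the plot have Wilson 95% intervals. Both cover counting error only, since PCR copies of a molecule cannot be told apart. The fit of 24 hr against 4 hr was tested on simulated data with no vitC effect and no other departure between libraries. It recovered 78% of 2-fold and 99% of 4-fold changes, with 8 false calls among 14931 genes. This does not cover genes whose vitC ratio changes with time. Alternatives were DESeq2 1.42.0, other scalings, filters and prior counts, thinning to equal depth, a GC and length correction (GC values existed for 6 of 7 members), no treatment term, omission of each library or time, and, chosen after seeing the data, the Lars2 share as a covariate. Lanes come from the names of the count files.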

Additional observations from a re-analysis of the deposited data

Results flagged for a closer look

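The course of Zfp951 from 4 hr went opposite ways in the 2 treatments. In 2i its log2 ratios to 4 hr were -0.78, -0.57, and -0.64 for 16, 24, and 32 hr, and with vitC they were 0.24, 0.44, and 0.76. The mean vitC course minus the mean 2i course was 1.14 on the log2 scale. This difference is made of the pair ratios that chose the member, so nothing is read from it. With 1 library per time and treatment this difference was not tested, and all 3 ratios of a treatment share their 4 hr library.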

How the results depend on the processing

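The 7 members were higher with vitC at all 4 times under each scaling, prior count, and thinning (6 of 6 with the GC and length correction), while the number of genes that met the rule ranged from 1560 to 1751. The members were chosen on these ratios, the smallest of which was 0.55, so their count was largely fixed by the choice. Thinning to equal depth moved the mean log2 ratio of C130073F10Rik from 1.79 to 1.41 and that of 1700030C10Rik from 1.35 to 1.56.

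The time calls changed with the setting. Without a treatment term 1289, 1891, and 2756 genes passed at 16, 24, and 32 hr, and the members called were 0 at each time. For the members this follows in part from their choice, since their vitC difference then enters the error. With the Lars2 share as a covariate the genes numbered 73, 0, and 159 at 16, 24, and 32 hr, and the members 0. Thinning left 2 members at 32 hr (C130073F10Rik and 1700030C10Rik), and the GC and length correction ended the call of Pprc1 there (0.34, edgeR adjusted p = 0.179). Omitting 1 library gave 634 to 2063 genes and 0 to 3 members at 16 hr, 748 to 3341 genes and 1 to 3 members at 24 hr, and 1403 to 4073 genes and 0 to 4 members at 32 hr. The fewest genes came without the vitC library at 4 hr for 16 hr, without the vitC library at 24 hr for 24 hr, and without the 2i library at 32 hr for 32 hr. The members called fell to 0 at 16 hr without either of the vitC libraries at 4 and 16 hr, to 1 at 24 hr without either of those at 4 and 24 hr, and at 32 hr to 0 without that at 4 hr and to 1 without either library at 32 hr. Omitting a library leaves 1 library at its time, which is assumed to vary like the rest. Other causes were not tested.

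Changes that did not pass reversed in sign as follows. For Zfp951 thinning gave 0.21 at 16 hr and 0.28 at 24 hr, no treatment term 0.038 at 24 hr, the covariate -0.92 at 32 hr, and omitting a library -0.88 to 0.31, -0.66 to 0.52, and -0.51 to 0.67 at 16, 24, and 32 hr. For ENSMUSG00000078564 at 16 hr DESeq2 gave -0.0048, thinning -0.089, and the covariate -0.12, and omitting a library gave -0.37 to 0.41 at 16 hr and -0.89 to 0.12 at 24 hr. For Ppp2r2a the covariate gave -0.23 at 16 hr and -0.15 at 24 hr, and omitting a library -0.061 to 0.21 at 16 hr. For 1700030C10Rik the covariate gave -0.022 at 16 hr and -0.14 at 24 hr.

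No pairing by replicate number was possible because each group holds 1 library and the labels give no replicate numbers. The pairing of 2i and vitC libraries by time is part of the model itself. Depth limits Zfp951, 1700030C10Rik, and C130073F10Rik most, which had as few as 35 to 40 counts in a library.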
